A study of Arabidopsis thaliana with 44 samples.

Results

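Cytosolic ribosomal proteins are the protein building blocks of the cytoplasmic ribosome, and in Arabidopsis each of them is encoded by a small family of paralogous genes. The genes described here, the members, are a set list of cytosolic ribosomal protein genes, drawn up with earlier results of these data known. Each is listed in the expression tables and the m6A site tables of both experiments of the series. The list does not hold every gene of this kind. These 49 of 32833 genes were 32 of the large and 17 of the small subunit, for 27 ribosomal proteins. They held 586 of the 188282 m6A sites listed for the tissues and 350 of the 50458 sites listed for the mutant experiment. For 14 proteins (34 genes) all known cytosolic paralogs were members, so that the use of paralogs could be described. Where the deposited gene names and RefSeq disagree, a member is written with its locus identifier, as in RPL9-AT1G33120.

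The study mapped N6-methyladenosine (m6A) at single-base resolution in polyA RNA of wild-type Arabidopsis (ecotype Col-0) with m6A-SAC-seq, in which the enzyme MjDim1 puts an allyl group on m6A so that reverse transcription leaves a mutation there. A treated and an untreated (input) library were made from each of 2 biological replicates of 9 tissues: seedlings at 7 days, shoots and roots at 14 days from plates, rosette leaves (spelled rosetta leaf in the labels) at 30 days from soil, cauline leaves, stems, flowers and siliques after flowering, and dry seeds. A second experiment compared Col seedlings (At10 in the sample titles, Col_0 in the tables, whose age is uncertain, as the methods give 7 days for seedlings in general) with mta seedlings harvested at 8 days, again with 2 replicates and both kinds of library. The mta plants carry a loss-of-function allele of MTA, the catalytic subunit of the m6A methyltransferase complex, and a copy of MTA driven by the embryo-active ABI3 promoter, so that they pass through embryogenesis and make less MTA afterwards. All plants, the mta line included, are in the Col-0 background, and no plants other than these were compared here.

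A ribosome joins a large subunit, which holds the peptidyl transferase centre, the peptide exit tunnel and the stalk that recruits translation factors, to a small subunit, which threads and decodes the mRNA. Its proteins are needed in equal amounts, and their genes are typically transcribed together, most strongly in dividing and growing cells and under the control of the TOR kinase. The paralogs of a family encode nearly the same protein, and mutants in single paralogs in Arabidopsis often have pointed, narrow leaves. m6A is written co-transcriptionally, in plants mostly near the stop codon and in the 3′ UTR.

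The input libraries of the tissues held 3355823 to 6903234 reads in genes and the treated ones 10382637 to 14693950. Expression is given as RPKM, that is reads divided by the gene's length and by the TMM-scaled library size. Tissue marker genes were highest in the tissue they name. The 10 most abundant genes took 21.6% and 21% of the reads in seeds and 14.3% and 14.1% in rosette leaves, against 4.73% and 4.68% in roots and 4.88% in each flower library. In these bulk samples, fewer cells of a type and less RNA per cell cannot be told apart.

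The members were abundant transcripts: 34 of them averaged over 100 RPKM across the tissues. Among the large subunit genes near the catalytic centre and the tunnel, RPL8A and RPL3A, whose proteins lie by the peptidyl transferase centre, reached 436.9 and 441.0 RPKM and 390.2 and 393.2 RPKM in the flower libraries. RPP0B (AT3G09200), the main gene for the protein at the base of the stalk, averaged 300.4 RPKM, and in the small subunit RPSAA (AT1G72370, a protein of the laminin receptor family) averaged 329.5 RPKM and RPS8A 316.3. Only 5 members averaged under 20 RPKM: RPSAB with 3.8, RPP0A with 5.0, RPL10B with 7.6, RPL11A with 14.7 and RPL9D with 18.1. Their counts were low in some tissues: RPL10B had 2 and 4 reads in the seed libraries, and RPP0A had 12 and 3 in those of cauline leaves.

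Ribosomal protein transcripts were most abundant in flowers, roots and siliques and least abundant in cauline leaves. The members took 1.83% and 1.86% of all input reads in flowers, 1.5% and 1.51% in roots and 1.25% and 1.24% in siliques. The shares were 0.925% and 0.943% in shoots, 0.724% and 0.731% in seedlings and 0.665% and 0.699% in rosette leaves. They were lowest in stems (0.429% and 0.439%), seeds (0.301% and 0.308%) and cauline leaves (0.259% in each library). The libraries of neighbouring tissues in this order did not overlap. In RPKM, which also corrects for the few genes that dominate seed and rosette leaf libraries, rosette leaves stood above seedlings and shoots: the summed RPKM of the members was 12210 and 12319 in flowers, 10375 and 10298 in roots, 9178 and 9091 in siliques, 7872 and 7988 in rosette leaves, 5995 and 6056 in shoots, 5405 and 5430 in seedlings, 4016 and 4021 in seeds, 3853 and 3878 in stems and 2350 and 2367 in cauline leaves. Flowers were the highest tissue for 37 members and roots for 9, and cauline leaves were the lowest for 40. Both flower libraries lay above both cauline leaf libraries in all 49 members, and above all 16 other libraries in 33. These counts of highest, lowest and non-overlapping tissues were made for the members only, so no share over all genes stands beside them. The ratio of the highest to the lowest tissue mean ran from 3.19 to 18 with a median of 5.60.

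**Figure D1:**
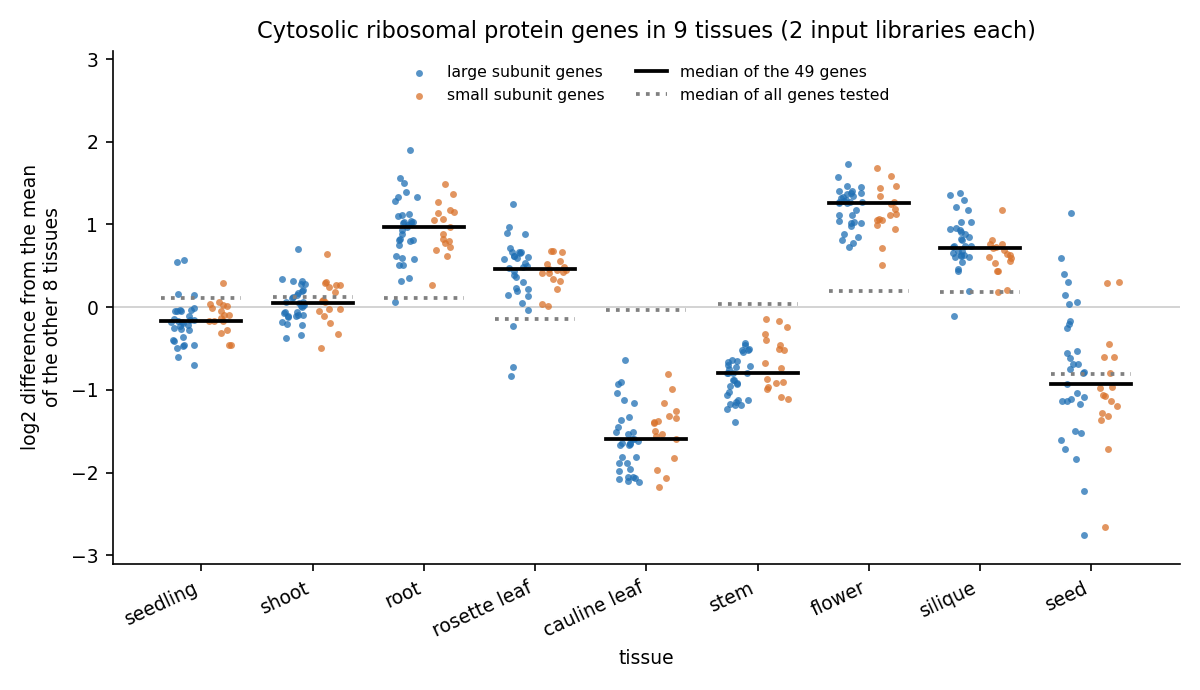
Each point is a ribosomal protein gene, with the log2 difference between a tissue and the mean of the other 8 tissues on the vertical axis; black lines are the medians of the 49 genes and dotted lines those of all genes tested. The members lie above 0 in flowers and roots and below 0 in cauline leaves and stems under every scaling, whereas the median in rosette leaves, 0.46 here, is -0.09 when scaled by library size only, and seeds show the widest spread.

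For each tissue, the 2 input libraries were tested against the mean of the log2 values of the other 8 tissues with edgeR's quasi-likelihood test, with p-values adjusted by Benjamini-Hochberg over 21805 genes and a threshold of 0.05. All 49 members differed among the tissues, as did 99.3% of all genes tested, so that only the direction and size in each tissue tell the members from other genes. Scaling by library size alone, tried after seeing the data, moved the median of all genes in every tissue, most in seeds, from -0.81 to -1.44 on the log2 scale. Counts of members and of listed genes under that scaling are given below without the shares of all genes under it. They show how the calls depend on the scaling and are not a result about the members. Relative to the median of all genes, the members' median was 1.07 in flowers, 0.85 in roots, 0.60 in rosette leaves, 0.52 in siliques, -0.07 in shoots, -0.12 in seeds, -0.28 in seedlings, -0.83 in stems and -1.55 in cauline leaves, and library size scaling changed these values only in seeds by over 0.1, to -0.25.

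In flowers, all 49 members were higher than in the other tissues, where 41.5% of all genes tested were higher, with a median log2 difference of 1.26 against 0.19 for all genes. RPL11-AT5G45775 had the largest difference; RPL11 binds the 5S rRNA of the large subunit. Its RPKM was 187.5 and 202.7 in flowers, and the next highest libraries were those of roots with 153.0 and 151.8 (log2 1.73, SE 0.05, edgeR adjusted p 1.21e-228). RPS18-AT1G22780, known as POINTED FIRST LEAF, was at 288.0 and 288.4 in flowers and at 253.6 and 257.7 in roots, above all other libraries (log2 1.68, SE 0.05, edgeR adjusted p 2.03e-245). RPS15A (AT1G07770), a protein of the small subunit platform, was at 269.3 and 271.0 in flowers, at 202.7 and 209.1 in roots and at 18.7 and 21 in seeds (log2 1.58, SE 0.04, edgeR adjusted p 9.62e-306).

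In roots, 48 members were higher and none was lower, against 43.7% of all genes higher, with a median of 0.97 against 0.11. The exception was RPL4A, whose protein lines the exit tunnel, at 132.6 and 127.4 RPKM in roots (log2 0.07, edgeR adjusted p 0.177). The largest difference was in RPL10B, a rare paralog of the protein that joins the large subunit last, at 18.1 and 17.4 RPKM in roots against 0.6 to 14.4 in all other libraries (log2 1.90, SE 0.14, edgeR adjusted p 6.52e-40). RPL11-AT4G18730 was at 427.4 and 401.8 in roots, above flowers (383.0 and 395.6) and far above cauline leaves (52.2 and 51.3), with a log2 difference of 1.57 (SE 0.04, edgeR adjusted p 6.11e-306). The third, RPP0A, a stalk base paralog of low level, was at 11.5 and 7.8 RPKM in roots and overlapped with flowers (8.8 in each library) and siliques (7.8 and 9.3), with a log2 difference of 1.5 (SE 0.15, edgeR adjusted p 7.79e-23).

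In siliques, 48 members were higher, against 42.5% of all genes, with a median of 0.71 against 0.19. RPL24A (AT2G36620), one of the genes for a protein that bridges the subunits, was at 105.6 and 103.0 RPKM, next to flowers (101.5 and 110.4) and rosette leaves (92.8 and 100.7), and had a log2 difference of 1.38 (SE 0.06, edgeR adjusted p 2.71e-103). RPL23AB (AT3G55280), whose protein sits at the exit of the tunnel, was at 85.3 and 91.0, overlapping with flowers at 87.1 and 87.8 (log2 1.36, SE 0.07, edgeR adjusted p 5.92e-87). RPP0A had a log2 difference of 1.29 (SE 0.16, edgeR adjusted p 6.76e-15). RPL10C (AT1G66580), at 99.7 and 102.1 in siliques, was not called (log2 -0.10, edgeR adjusted p 0.0796), and was called lower with DESeq2's size factors and in the treated libraries.

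In rosette leaves, 40 members were higher and 2 lower, against 30.0% and 23.7% of all genes, with a median of 0.46 against -0.14, but with library size scaling alone 9 were higher and 19 lower and the median was -0.09 against -0.69. RPL24A was again the first, at 92.8 and 100.7 RPKM (log2 1.25, SE 0.08, edgeR adjusted p 3.41e-54), followed by RPL7B with 215.2 and 225.0 (log2 0.97, SE 0.05, edgeR adjusted p 5.88e-75) and RPL4D with 217.7 and 214.7 (log2 0.90, SE 0.05, edgeR adjusted p 1.54e-77). RPL4D was close to its flower values (229.0 and 223.6), while RPL7B was below its own (286.5 and 278.4). Lower were RPL10C, at 66.4 and 62.3 (log2 -0.83, SE 0.07, edgeR adjusted p 1.5e-29), and RPP0A, at 2.6 and 2.4 RPKM or 13 and 10 reads (log2 -0.72, SE 0.30, edgeR adjusted p 0.0336), which was no longer called with DESeq2, without cauline leaf replicate 1, without either rosette leaf replicate or without seed replicate 2, each of which left 1 member lower.

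In seedlings, 4 members were higher and 28 lower, against 37.2% and 19.3% of all genes, but 16 and 11 with library size scaling alone, and the median was -0.17 against 0.11 for all genes. The called members with the largest falls were rare paralogs: RPL9D with 10.0 and 9.1 RPKM (log2 -0.70, SE 0.12, edgeR adjusted p 4.07e-09), RPP0C with 15.1 and 14.7 (log2 -0.60, SE 0.10, edgeR adjusted p 7.01e-09) and RPL11-AT3G58700 with 21 and 19.8 (log2 -0.49, SE 0.10, edgeR adjusted p 2.07e-06). RPP0A (5.0 and 6.0 RPKM, log2 0.57, SE 0.19, edgeR adjusted p 0.00449) and RPL11A (14.5 and 19.9 RPKM, log2 0.55, SE 0.14, edgeR adjusted p 0.000156) were higher, but not without seedling replicate 2, when 1 member was called higher. RPS15A was higher by a log2 of 0.29 (115.2 and 128.9 RPKM, SE 0.05, edgeR adjusted p 4.75e-09), in which its low seed level weighs, since the other tissues enter as a mean of logs.

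In shoots, 17 members were higher and 11 lower, against 36.7% and 17.1% of all genes, and the median was 0.06 against 0.13 for all genes. With library size scaling alone 44 were higher and 0 lower, but the median of all genes moved as well. No share of all genes under that scaling stands beside these counts. RPL10B (7.5 and 9.3 RPKM, log2 0.70, SE 0.19, edgeR adjusted p 0.000435) and RPSAB (4.3 and 6.2 RPKM, log2 0.64, SE 0.19, edgeR adjusted p 0.0018) were higher, but not without shoot replicate 2, when 11 members were called higher. RPL11-AT5G45775 was higher as well (75.6 and 87.8 RPKM, log2 0.32, SE 0.06, edgeR adjusted p 1.42e-06). RPS28 (AT5G03850), which lies at the mRNA exit of the small subunit, was lower (52.6 and 59.0 RPKM, log2 -0.49, SE 0.07, edgeR adjusted p 5.1e-12) and was not called with library size scaling alone. RPL9-AT1G33140 (88.5 and 91.8 RPKM) and RPL9-AT1G33120 (47.1 and 39.3 RPKM) had log2 differences of -0.38 and -0.34 (edgeR adjusted p 2.26e-10 and 1.41e-05), but by library size scaling alone they were at 0.03 and 0.07.

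Nearly every member was low in cauline leaves and stems. In cauline leaves all 49 members were lower, against 22.0% of all genes, with a median of -1.59 against -0.04. In 35 members both cauline leaf libraries lay below all 16 others, a count that was not made for all genes. RPS6A (AT4G31700), a gene for the small subunit protein that S6 kinase phosphorylates downstream of TOR, was at 26.5 and 30.1 RPKM, against 44.4 to 243.9 in all other libraries (log2 -2.17, SE 0.08, edgeR adjusted p 4.08e-167). RPL5A, a partner of RPL11 on the 5S rRNA, was at 36.3 and 35.7 against 65.9 and more elsewhere (log2 -2.11, SE 0.07, edgeR adjusted p 6.2e-214). RPL11A was at 2.9 and 4.2 RPKM or 16 and 11 reads (log2 -2.11, SE 0.23, edgeR adjusted p 2.95e-19). In stems 48 members were lower, against 19.0% of all genes, with a median of -0.79 against 0.04. RPL11A (5.6 and 4.9 RPKM, log2 -1.39, SE 0.21, edgeR adjusted p 2.12e-10), RPL23AB (17 and 18.5 RPKM, log2 -1.23, SE 0.12, edgeR adjusted p 6.77e-26) and RPL10C (52.0 and 51.8 RPKM, log2 -1.18, SE 0.07, edgeR adjusted p 1.1e-66) had the largest falls, and RPL10C was lower in stems than in every other library. RPSAB was not called in stems (1.9 and 3.1 RPKM, log2 -0.52, edgeR adjusted p 0.0790).

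Dry seeds were the tissue in which the members differed most from each other. The standard deviation of the log2 differences among the 49 members was 0.79 in seeds, with values from -2.76 to 1.14, and 0.24 to 0.38 in the other 8 tissues. It was taken over the members only, so no spread of all genes stands beside it. A total of 7 members were higher and 38 lower, against 32.0% and 41.6% of all genes, with a median of -0.93 against -0.81 for all genes, and with library size scaling alone 1 was higher and 47 were lower. Without seed replicate 1, 4 were higher and the members' median was 0.03 above that of all genes. In RPKM, RPL10C was highest in seeds, at 221.3 and 213.8 against 51.8 to 204.3 in all other libraries (log2 1.14, SE 0.05, edgeR adjusted p 2.86e-97). Its share of all input reads was lower in seeds than in roots, so this rank depends on the scaling. It had 751 of 4771507 and 709 of 4560899 reads in seeds, and 1622 of 5959069 and 1460 of 4988599 in roots. RPL11A (15.6 and 20.1 RPKM, log2 0.60, SE 0.18, edgeR adjusted p 0.00131) and RPL11-AT3G58700 (39.3 and 31.0 RPKM, log2 0.40, SE 0.11, edgeR adjusted p 0.000649) were higher as well, but by library size scaling alone they were at -0.16 and -0.37, and each lost its call without a single seed replicate (RPL11A without replicate 2, RPL11-AT3G58700 without replicate 1). RPS15A was at 18.7 and 21 RPKM in seeds, below the 41.2 to 271.0 of all other libraries (log2 -2.66, SE 0.09, edgeR adjusted p 4.36e-198). RPL24A was at 11.6 and 11.1, just under cauline leaves with 14.7 and 12.3 (log2 -2.22, SE 0.15, edgeR adjusted p 1.78e-52). The lowest log2 difference, -2.76 in RPL10B (SE 0.43, edgeR adjusted p 2.6e-10), rests on 2 and 4 reads.

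The medians of large and small subunit genes, whose difference was not tested, were 1.27 and 1.13 in flowers, 0.98 and 0.96 in roots, 0.74 and 0.64 in siliques, -0.80 and -0.67 in stems, -1.64 and -1.40 in cauline leaves and -0.76 and -1.07 in seeds.

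Other genes of the pathway split into those that followed the members and those that did not. Of 22 genes for ribosome biogenesis, translation elongation and the ribosome-associated RACK1, 15 were higher and 4 lower in flowers, 17 and 2 in roots and 16 and 4 in siliques, where 41.5%, 43.7% and 42.5% of all genes were higher. In cauline leaves, stems and seedlings 19 were lower, against 22.0%, 19.0% and 19.3% of all genes. In shoots 11 were higher and 6 lower, and 17 and 1 with library size scaling alone. In rosette leaves 13 were higher and 2 lower, but with library size scaling alone 4 were higher and 10 lower. In cauline leaves the log2 difference was -4.02 for FIB2, a fibrillarin of the nucleolus, -2.93 for RACK1B and -2.57 for the pseudouridine synthase CBF5. In seeds 13 genes of the list were higher and 7 lower, but 9 and 11 with library size scaling alone. The list's median there was 0.48 against -0.81 for all genes tested, and with library size scaling alone it was -0.28 against -1.44. Among these genes in seeds, REIL2, a cytoplasmic maturation factor of the large subunit, was at 2.42, EIF6-2 at 2.11, FIB1 at 1.67 and the nucleolin NUC1 at 1.57, while RACK1C was at -4.69. Of the 5 genes of the TOR pathway, 4 were higher and 1 lower in each of cauline leaves, stems and seeds, but with library size scaling alone 3 were higher in each of them and 2 were lower in seeds. Of all genes tested, 34.4%, 35.1% and 32.0% were higher in these tissues. All 5 were lower in siliques, against 20.5% of all genes, and 3 with library size scaling alone. In seeds the S6 kinase gene AT3G08720 was at 2.72 and its neighbour AT3G08730 at -0.74, with RAPTOR1 at 1.69 and TOR at 1.04. The summed RPKM of 5 markers of dividing cells was 87.9 and 99.9 in siliques, 41.8 and 44.5 in flowers and 35.0 and 35.9 in roots, 11.8 to 16.3 in seedlings, shoots and rosette leaves, and 0.7 to 4.2 in stems, cauline leaves and seeds. Its part in the members' levels was not tested.

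The share that each paralog contributed to its family was compared over tissues, as the paralog's RPKM in percent of the family's. In 6 families a paralog's share changed by 20.3 to 29.4 points between tissues, while replicates differed by at most 4.02 points. In the RPL10 family, RPL10C gave 14.9% and 15.3% of the transcripts in rosette leaves and 44.7% and 44.4% in seeds, a range of 29.4 points. RPL10A, the paralog that the immune receptor-like kinase NIK1 targets, gave 83.1% and 83.0% in rosette leaves and 55.2% and 55.3% in seeds, and RPL10B the small rest. RPL24A gave 38.2% and 37.2% of its family in rosette leaves but 8.3% and 8.4% in seeds (range 29.3 points), so that in seeds nearly all RPL24 transcripts came from RPL24B, known as SHORT VALVE1 for its role in reinitiation of translation and gynoecium patterning. RPL4D gave 56.7% and 58.8% in rosette leaves and 30.2% and 31.9% in seeds (26.7 points), the remainder being RPL4A.

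In the RPL11 family, RPL11-AT4G18730 was the main paralog everywhere, and the share of RPL11-AT5G45775 went from 11.8% and 11.9% in seeds to 35.5% and 36% in siliques (23.9 points). The range of RPS18C was 22.3 points, from 35.3% and 37.5% in seeds and 37.7% and 35.4% in roots to 58.2% and 59.2% in cauline leaves and 57.8% and 57.5% in stems. RPS18-AT1G22780 was its mirror, at 35.1% and 35.4% in roots and 16.9% and 17.8% in cauline leaves. RPS6A gave 25.3% and 27.4% of the RPS6 transcripts in cauline leaves and 46.8% and 46.5% in siliques (20.3 points), with RPS6B ahead in every library of the tissue series. In each Col seedling library of the second experiment RPS6A gave 54.9%, more than in any tissue here. The differences between replicates given above do not cover such gaps between experiments. Seeds set the extremes of several families: leaving them out, which was tried after seeing the data, gave ranges of 20.5 points for RPL10C, 21.2 for RPL24A, 12.3 for RPL4D and 14.9 for RPL11-AT5G45775, and left RPS18C (22.1) and RPS6A (20.3) nearly as they were.

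**Figure D2:**
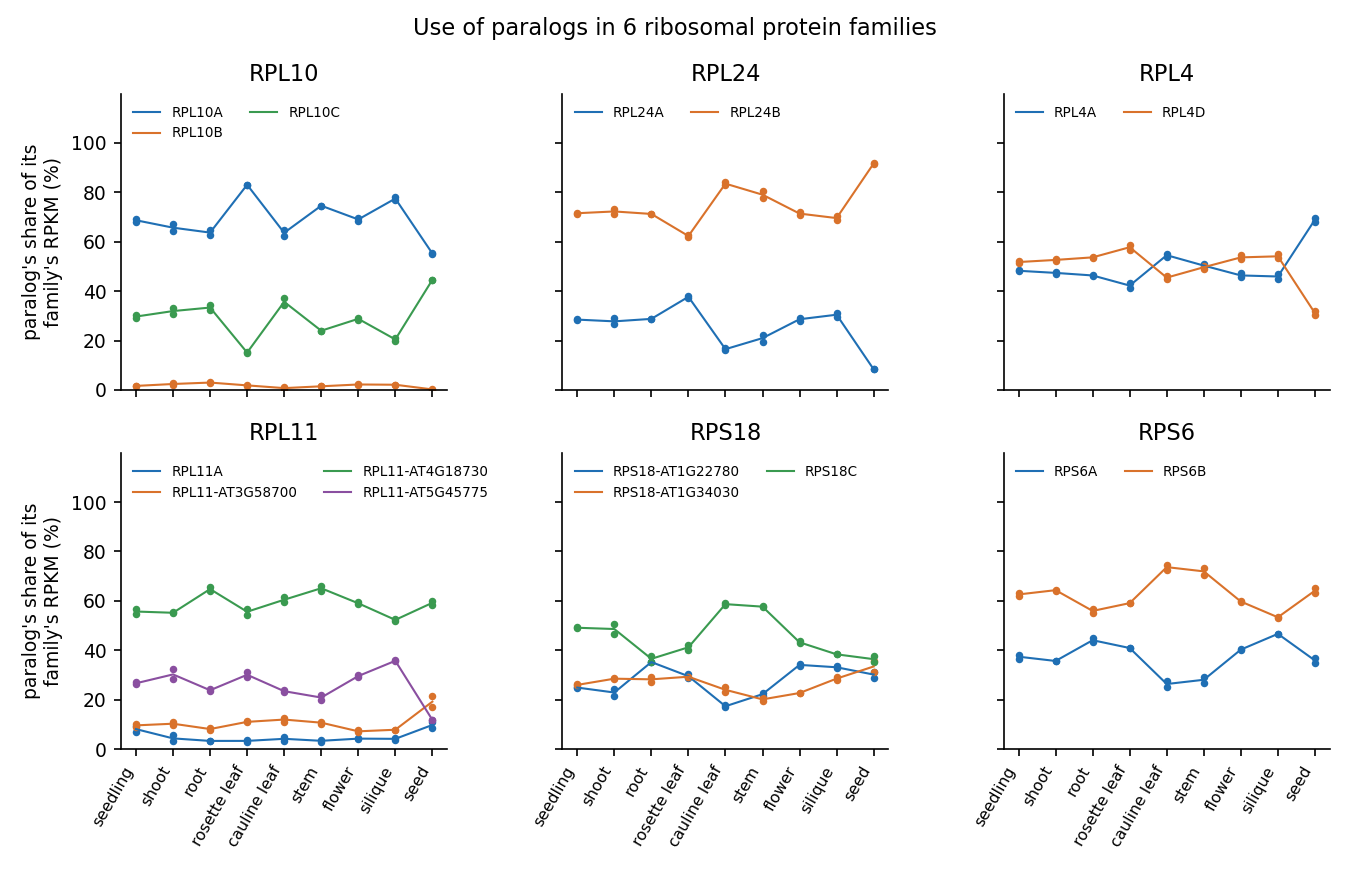
Each panel shows a family, with the share of each paralog in the family's RPKM in percent on the vertical axis and the 9 tissues on the horizontal axis; points are the 2 input libraries and lines join their means. Points of a tissue nearly coincide, RPL10C has its peak in seeds (44.6% on average) and its trough in rosette leaves (15.1%), and RPL24A does the reverse (8.35% and 37.7%).

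The other 8 complete families ranged less. In the RPL5 family the range of 5.55 points was smaller than the largest difference between replicates, 6.46 points. RPSAA gave 98.2% to 99.2% of its family on average in every tissue. Shares depend on reads being assigned to the right paralog: 32 members shared no 50-base word with any other gene, and only RPL9-AT1G33120 and RPL9-AT1G33140 shared over 10% of theirs (53.4% and 54.2%, with each other), so the split between these neighbours on chromosome 1 is uncertain.

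The m6A of ribosomal protein mRNAs lay mostly in the 3′ UTR. A site was counted where the authors marked it as m6A and its read depth was at least 20, and its fraction is the share of transcripts methylated there, calibrated by the authors on spike-in RNA. These values are pooled over the replicates, so they carry no replicate spread and were not tested. The members, which were required to be listed in the site tables, had 581 distinct sites in all, with a mean of 6.10 sites per member and tissue. Averaged over the tissues, the median member had 6.33 sites and a summed fraction of 2.80, against 1.44 sites and 0.61 in the 19933 other genes with listed sites, but the median depth at sites, averaged over the tissues, was 512 reads in members and 92.1 in other genes. By summed fraction, 84.6% of the members' methylation lay in the 3′ UTR, 15.0% in the coding sequence and 0.333% in the 5′ UTR, against 65.4% in the 3′ UTR and 33.1% in the coding sequence of other genes. The median fraction of a site was 0.527 in the 3′ UTR and 0.151 in the coding sequence.

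The tissues differed mainly in coding sequence sites. Siliques had 409 sites in members, 178 of them in the coding sequence, so that 72.6% of the summed fraction lay in the 3′ UTR. Roots had 248 sites with 34 in the coding sequence and 93.8% of the summed fraction in the 3′ UTR, although the median depth was 1165 in roots and 691 in siliques. The number of 3′ UTR sites varied only from 172 in cauline leaves to 239 in flowers. Other genes had the same extremes, with 52.5% of the summed fraction in the 3′ UTR in siliques and 78.5% in roots.

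All 312 of the 3′ UTR sites fell 3 to 244 nt after the stop codon, with a median of 110 nt, in 3′ UTRs with a median length of 289 nt (193 to 1002 nt), and 140 fell within the first 100 nt. Members also shared a set of constant sites: 153 of the 581 sites (26.3%) were found in all 9 tissues, against 3.72% of the sites of all genes. Members' sites are read more deeply: among listed sites with a depth of 100 or more in every tissue, a floor that does not equalise depth, 27.5% of members' sites and 14.9% of other genes' sites were found in all 9 tissues, and in the 3′ UTR 49.7% and 35.1%. The 153 sites were in 43 members, 135 of them in the 3′ UTR and 17 in the coding sequence. By motif, 90 had the canonical RAC (A or G, then A and C), 53 had GAT and 10 another motif.

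**Figure D3:**
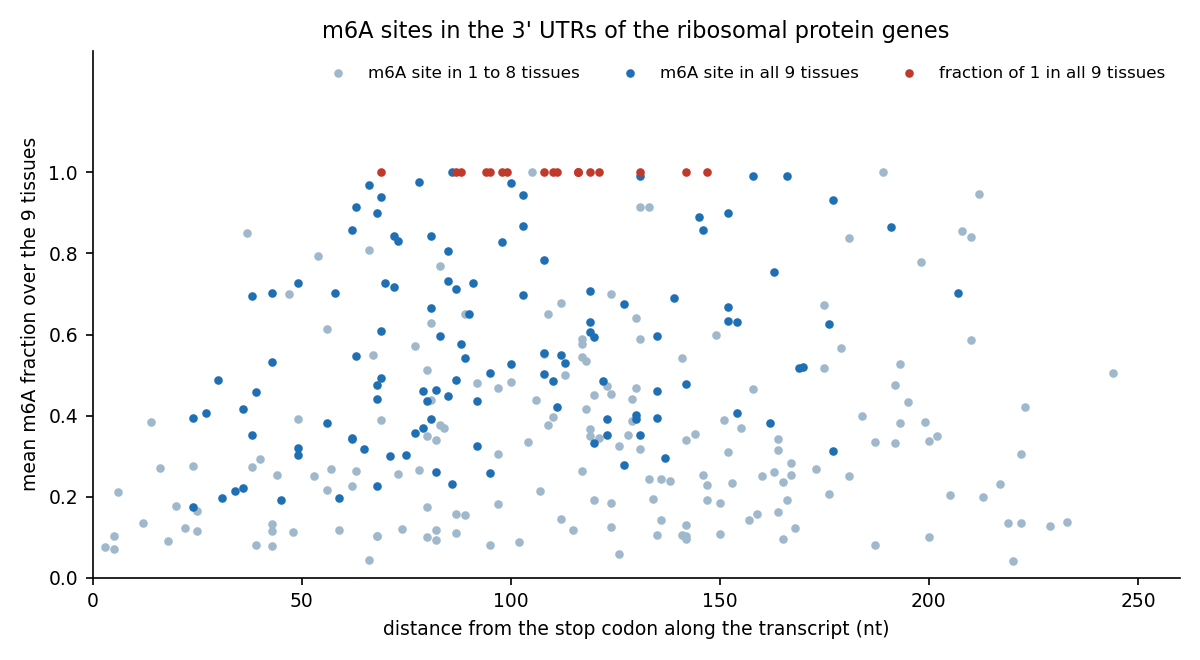
Each point is an m6A site in the 3′ UTR of a ribosomal protein gene, with its distance from the stop codon in nt on the horizontal axis and its fraction averaged over the 9 tissues on the vertical axis; colours mark sites found in 1 to 8 tissues, in all 9, and in all 9 with a fraction of 1 in each. Depths under 20 enter the average but do not count as found. The sites end at 244 nt, and the 18 sites found in all 9 tissues with a fraction of 1 in each lie between 69 and 147 nt.

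Among single genes, RPL9-AT1G33120 carried the most methylation, with a summed fraction of 4.70 ± 0.68 (mean and SD over the 9 tissues), from 4.08 in rosette leaves to 6.32 in cauline leaves. RPS15A followed with 4.47 ± 0.52, then RPS3A, a protein at the mRNA entry channel, with 4.4 ± 0.80, RPL28A with 4.38 ± 0.94 and RPSAA with 4.34 ± 0.79. RPL7AA (4.3 ± 1.06), RPL7B (4.0 ± 1.02) and RPL5A (3.99 ± 0.82) complete the top 8. RPSAA had the most sites, 22 distinct ones and a mean of 11 per tissue. RPL7AB was the steadiest of the highly methylated genes, at 3.33 ± 0.18, from 3.02 in roots to 3.67 in seedlings. The 5 members with the lowest means were low-level paralogs: RPL10B at 0.33 (sites in 3 tissues), RPSAB at 0.35 (2 tissues), RPP0A at 0.66 (4 tissues), RPL11A at 1.1 (6 tissues) and RPP0C at 1.41 (5 tissues). In these genes few sites reach the depth needed, with a median depth of 12.5 in RPL10B and 11 in RPSAB. Over the 49 members Spearman's rho between mean RPKM and mean summed fraction was 0.434, and over the 34 members at 100 RPKM or more it was -0.10; the members share libraries and depth, so these are descriptions only.

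A total of 18 sites in 17 members had a fraction of 1 in all 9 tissues. All were in the 3′ UTR and of the RAC class, 69 to 147 nt after the stop codon (median 110.5 nt), with a lowest depth over the tissues of 21 to 359 reads. Such sites made up 11.8% of the members' constant sites and 10.3% of those of other genes (638 sites). In 10 of the 18 the motif was AGACA (55.6%, against 34.3% of such sites in other genes). These 10 are shown because the same motif in the same part of the 3′ UTR recurs in members of different families. Each window has 21 bases, 5′ to 3′ on the transcript's strand, read from the TAIR10 genome, with the motif in capitals and the methylated A at its centre.
RPL9-AT1G33120: agttttggAGACAattagaga
RPL10C: tgattccaAGACAattgtttc
RPL7B: aagttaaaAGACAttttgaat
RPS24A: ctccaactAGACAtgtttact
RPL18B: cctctttcAGACAtgctacta
RPL11-AT3G58700: tgttcttcAGACAttttgatt
RPS6A: ttgttccaAGACAtgggtaca
RPS28: ttgctttaAGACAattgctgc
RPS6B: tgctccacAGACAtgagaacg
RPL18C: tattctcaAGACAattggata

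In the same order, the windows lie at chr1:12012355-12012375 (plus strand, 142 nt after the stop codon), chr1:24840545-24840565 (plus, 116 nt), chr2:132846-132866 (minus, 87 nt), chr3:1362154-1362174 (plus, 99 nt), chr3:1622873-1622893 (plus, 108 nt), chr3:21712900-21712920 (plus, 94 nt), chr4:15346185-15346205 (minus, 111 nt), chr5:1028411-1028431 (minus, 121 nt), chr5:3258655-3258675 (minus, 69 nt) and chr5:9874406-9874426 (plus, 119 nt). Both RPS6 paralogs and both RPL18 paralogs among the members have such a site. For the RPL11-AT3G58700 site alone among the 10, a like sequence with another base in place of the A was found in another gene. In all, the members had 16 AGACA sites in 3′ UTRs of 14 genes, 13 of them found in all 9 tissues. The letters AGACA, searched on the transcript's strand only, stand in the first 200 nt of the 3′ UTR in 12 of the 45 members with a 3′ UTR of that length (26.7%) and in 18.6% of 16740 genes. The other 8 sites with a fraction of 1 had other RAC motifs: GGACA in RPL10A, AGACG in RPS18-AT1G22780 and RPL4D, AGACC in RPSAA and RPL13B, AAACC in RPL24B and RPL9-AT1G33120, and GAACC in RPL11-AT5G45775.

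Sites with GAT in place of the canonical motif made up 22.0% of the members' distinct sites and 17.5% of those of other genes. Of the 53 GAT sites found in all 9 tissues, 2 of the 3 with the highest average fractions are shown to set their sequence beside the AGACA sites, again with the motif in capitals.
RPL7AB: gctctttcGGATGttaccacc
RPL5A: gtgttcgaGGATTttgatatt

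They lie at chr3:23242749-23242769 and chr3:9269436-9269456, both on the minus strand, 103 and 127 nt after the stop codon. The fraction of the RPL7AB site ranged over the tissues from 0.623 to 0.743 and that of the RPL5A site from 0.608 to 0.754. The median of the tissue averages was 0.41 for the GAT sites and 0.73 for the RAC sites found in all 9 tissues.

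Outside the RAC and GAT motifs, 14 coding sequence sites had a mean fraction of 0.4 or more. The highest was in RPS15A, in the second base of an AAG codon.
RPS15A: gatgctctCAAGAgcatgtac

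This window lies at chr1:2409021-2409041 on the minus strand. Its fraction was 1 in 8 tissues and 0.677 in seeds, with a depth of 328 or more, and it was 1 in both Col and mta seedlings (depths 1713 and 1149). RPS3A (CAAGA, mean 0.764), RPL5A (TAAGG, 0.741) and RPL7AA (GAAGC, 0.687) had such sites with fractions down to 0.375, 0.356 and 0.297 in their lowest tissues. A like sequence in another gene with another base in place of the A was found for 2 of the 14 sites and for none of the 4 named here.

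Fractions also varied across the tissues. Of 522 sites with a depth of 20 or more in every tissue, the median range was 0.154. Among listed sites with a depth of 100 or more in every tissue it was 0.133 in members and 0.137 in other genes. A range of 1 was reached by 7 sites: in the 3′ UTR of RPL3A (AAACC), RPL11-AT4G18730 (GTACC), RPL23AB (CTATC) and RPL24A (CCATT), and in the coding sequence of RPP0C (CTAGC and CTATG) and RPL5A (TCAGG). None was marked as m6A in more than 4 tissues, and 1 of the 7 had a RAC motif. The RPL3A site, for example, was at 1 in seeds (depth 52), 0.580 in flowers (depth 319) and 0 in cauline leaves (depth 24), while the RPL23AB site was at 1 in stems (depth 105) and at 0 in shoots, rosette leaves, cauline leaves and seeds (depths 221, 230, 59 and 154).

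In the second experiment, the genotype was checked first by MTA itself. Its level was 5.94 and 5.99 TPM (a share of all transcripts, corrected for gene length) in the Col input libraries and 3.74 and 2.98 TPM in those of mta, which did not overlap (log2 -0.68, limma adjusted p 0.0119). The question for the members was whether their transcripts and their m6A sites differ when MTA is reduced. Expression was tested with limma on log2(TPM + 1) over 18420 genes, a scale that understates the change of genes with few transcripts.

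Ribosomal protein transcripts were lower in mta. Of the 49 members, 46 were lower, against 20.6% of all genes tested, and 1 was higher, against 6.31%. The median log2 difference was -0.47 in members and -0.14 in all genes. The summed level of the members was 15899 and 15916 TPM in Col and 11433 and 11343 TPM in mta. Of the reads recovered from the TPM values, the members took 1.352% and 1.349% in Col and 0.974% and 0.968% in mta. In the seedlings of the tissue series their share was 0.724% and 0.731%, below that of both genotypes here. The cause of this gap between the Col seedlings of the 2 experiments was not tested. Both mta libraries lay below both Col libraries in 48 members, as they did in 49.1% of all genes tested. Of the large subunit genes 30 of 32 were lower and of the small subunit genes 16 of 17, with medians of -0.47 and -0.46.

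RPL23AB had the largest fall. It was at 113.5 and 112.7 TPM in Col and at 67.0 and 64.2 in mta (log2 -0.78, SE 0.04, limma adjusted p 3.73e-05). RPS28 went from 242.6 and 233.2 to 139.1 and 142.4 (log2 -0.75, SE 0.04, limma adjusted p 1.66e-05). The rare RPL10B had 20.3 and 18.2 in Col and 10.8 and 11.7 in mta (log2 -0.72, SE 0.09, limma adjusted p 0.00148). In all 3 the genotypes were far apart compared with their replicates. RPL18C was next, from 327.3 and 314.4 to 194.0 and 196.6 (log2 -0.71, SE 0.03, limma adjusted p 1.48e-05), and then RPS6B, the other gene for the S6 kinase substrate, from 376.2 and 381.5 to 243.0 and 240.4 (log2 -0.65, SE 0.03, limma adjusted p 1.11e-05). The most abundant members fell to a similar degree: RPSAA was at 886.8 and 891.4 TPM in Col and 599.6 and 588.0 in mta (log2 -0.58), and RPP0B at 867.6 and 873.6 in Col and 620.7 and 618.4 in mta (log2 -0.49). The smallest called fall was that of RPL7B, from 292.3 and 304.6 to 259.8 and 261.5 (log2 -0.19, SE 0.03, limma adjusted p 0.0039).

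RPP0A alone was higher in mta, at 30.9 and 30.4 TPM in Col and 39.1 and 39.5 in mta (log2 0.35, SE 0.06, limma adjusted p 0.00495), and it was not called in the treated libraries. RPSAB (5.0 and 4.6 TPM in Col, 3.2 and 3.5 in mta, log2 -0.42, limma adjusted p 0.0595) and RPL11A (23.4 and 26.6 in Col, 23.1 and 19.3 in mta, log2 -0.23, limma adjusted p 0.161) were not called. With edgeR on the whole reads recovered from the TPM values, the medians were -0.32 in members and -0.01 in all genes, and 44 members were lower and 1 higher. Of the 18337 genes tested so, 2686 were lower and 2994 higher, so the shares over all genes depend on the scaling.

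**Figure D4:**
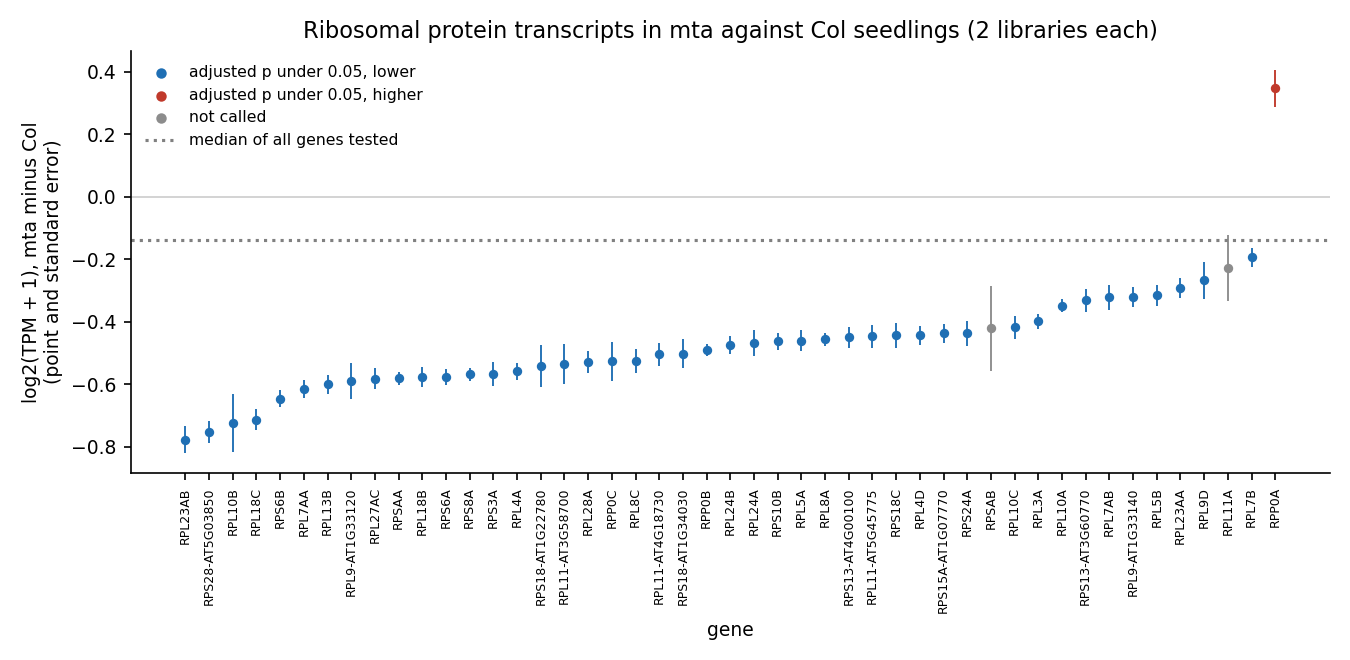
Points are 47 of the 49 ribosomal protein genes in order of their log2(TPM + 1) difference, mta minus Col, with standard errors from limma (2 libraries per genotype); the dotted line is the median of all genes tested, -0.14. All but RPP0A lie below the dotted line, from RPL23AB at -0.78 to RPL7B at -0.19 among the called falls.

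Of 21 tested genes of the biogenesis and translation list, 13 were lower in mta, none was higher and 8 were not called, against 20.6% of all genes lower, with a median of -0.32: RACK1B was at 144.1 and 141.8 TPM in Col and 82.8 and 84.2 in mta (log2 -0.77), FIB2 had a log2 difference of -0.59 and the elongation factor gene AT5G60390 one of -0.58. In the TOR list 1 of 5 was lower, the S6 kinase AT3G08730 (log2 -0.41), a share near that of all genes. Of 15 nuclear genes for chloroplast ribosomal proteins, 5 were higher, against 6.31% of all genes in the limma test, a share that depends on the scaling, and none was lower. Transcripts of several marker genes differed too: 4 of 5 markers of dividing cells were lower (summed 53.2 and 54.6 TPM in Col, 34.0 and 34.2 in mta), as were both root markers (46.5 and 43.8 in Col, 19.0 and 20.8 in mta), and both leaf markers were higher (40405 and 40439 in Col, 51120 and 51252 in mta). Of 3 seed storage genes, CRA1 (log2 -0.55) and AT2S1 (log2 -1.64) were lower too, while the stem wall markers CESA4, CESA7 and CESA8 were not called. The part of these changes in the lower ribosomal protein transcripts was not tested, and since it is not clear how old the Col seedlings were, a difference in age and the genotype cannot be told apart.

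The mean share of a paralog differed between the genotypes by at most 7.04 points. RPL23AB gave 33.3% and 32.4% of the RPL23A transcripts in Col and 26.4% and 25.2% in mta. RPL7AA gave 51.8% and 50.2% of its family in Col and 45.0% and 46.8% in mta, and RPP0A 3.27% and 3.21% in Col and 5.66% and 5.73% in mta. The genotypes did not overlap in these families, nor in most of the other complete families, in which the shift was smaller. With 2 libraries per genotype a lack of overlap is common, and it does not set these families apart. RPL10C, which ranged most over the tissues, gave 18.4% and 19.0% in Col and 18.2% and 17.9% in mta, and RPL24A 35.4% and 34.2% in Col and 34.5% and 35.3% in mta.

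At the level of single sites, 287 sites in 47 members had a depth of at least 20 in both genotypes and a fraction of at least 0.1 in Col. Of these, 206 (71.8%) had a lower fraction in mta, against 65.1% of the sites of all genes under the same rule, 61 had a higher and 20 an equal one. The median fraction was 0.391 in Col and 0.240 in mta. Sites were called MTA-dependent where the mta fraction was at most 2/3 of that in Col: 130 of the members' sites (45.3%), in 43 members, against 42.8% of the sites of all genes. The order depends on the limit: with an mta fraction of at most 1/2 of Col, 20.6% of members' sites and 29.2% of other genes' sites passed. Setting a floor on the Col value alone favours falls: with the floor on the mean of both genotypes, tried after seeing the data, 63.3% of members' sites and 51.7% of other genes' sites were lower in mta.

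By region, the members' sites split. In the 3′ UTR 112 of 197 sites were MTA-dependent (56.9%, against 48.6% in other genes, but 23.4% against 30.8% at a limit of 1/2), in the coding sequence 16 of 86 (18.6%, against 37.8%). Members' sites are read more deeply, and at a depth of 200 or more in both genotypes the 3′ UTR shares were 58.0% and 48.8% and the coding sequence shares 11.1% and 12.5%. This floor does not match depth either, as the median Col depth of coding sequence sites was then 713 in members and 449.5 in other genes. With the floor on the mean fraction, 81.6% of the 3′ UTR sites of members (69.4% in other genes) and 29.2% of their coding sequence sites (38.8%) were lower in mta. GAT sites were MTA-dependent in 51 of 74 cases (68.9%, against 49.5% in other genes, but 20.3% against 30.7% at a limit of 1/2) and RAC sites in 61 of 175 (34.9%, against 39.7%).

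**Figure D5:**
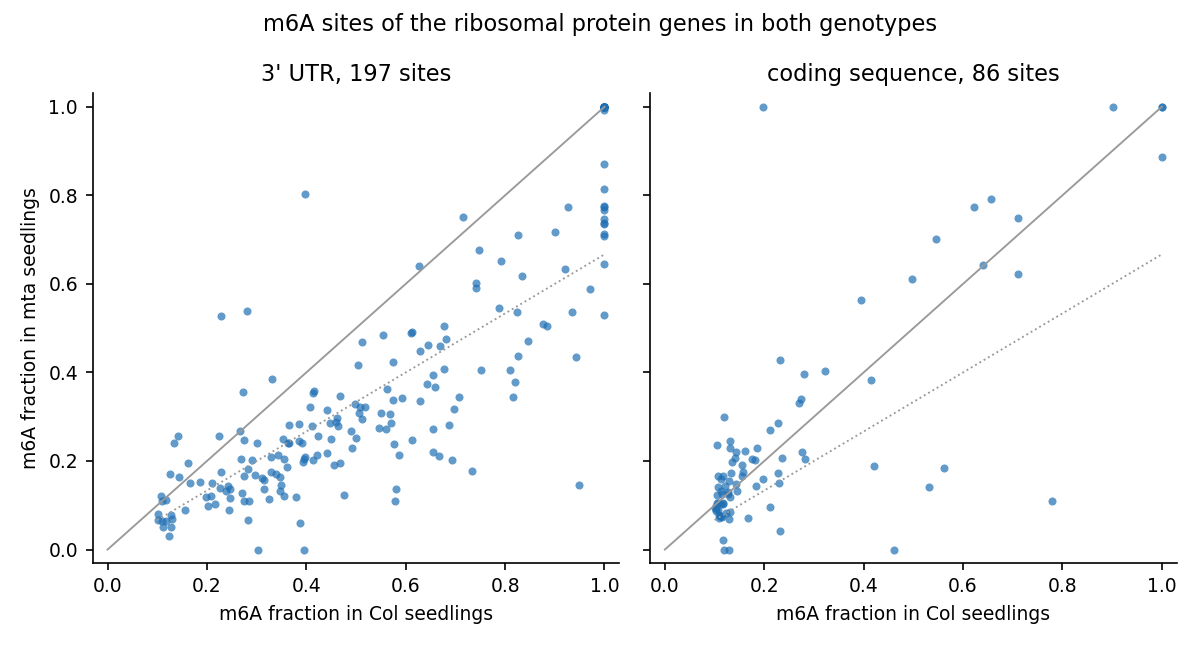
Each point is a site of a ribosomal protein gene tested in both genotypes, with its fraction in Col seedlings on the horizontal and in mta seedlings on the vertical axis, for the 3′ UTR (197 sites) and the coding sequence (86 sites); the solid line marks equal fractions and the dotted line 2/3 of the Col value. In the 3′ UTR 163 sites lie below the solid line and in the coding sequence 41.

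Summed over its tested sites, methylation was lower in mta in 45 of the 47 members and equal in RPL11A and RPP0C, which had a single tested site each. Sums were not made for other genes, in which no share can be set beside this, and 65.1% of the single sites of all genes were lower. The floor on the Col value, which favours falls, applies to these sums and to the shares that follow. RPL23AB, the member with the largest fall in expression, also kept the smallest share of its summed fraction, 3.15 in Col and 1.24 in mta (39.2%). RPL24A kept 47.6% and RPL5B 49.7%, while RPL4D kept 98.5% (3.86 and 3.80). Across the 47 members, Spearman's rho between the difference in summed fraction and the log2 difference in expression was 0.209, a description over genes that share the same libraries.

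The 8 sites with the largest falls were of several kinds, 5 with a RAC motif and 3 with another. They are shown with the motif in capitals, and their values follow.
RPL5A: aatttgtaTGACAatagtttg
RPL10C: tggagctgATAGGcttcagac
RPL24A: gtttatgaAAACTttttgttt
RPP0B: ttatgttaCTACTgtctttta
RPL24B: ctgcttatGAACTttatttca
RPS24A: gtttagagAAACAtatgatcc
RPL5B: tgtttgaaGAATTtattatca
RPP0A: tattttatGGACCtttaaaac

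The RPP0B site (chr3:2823242-2823262, minus strand, 112 nt after the stop codon) went from 0.942 to 0.435 at depths of 809 and 626 reads, the deepest of the 8. The RPL24A site (chr2:15350414-15350434, minus, 124 nt) went from 0.733 to 0.177 and the RPL24B site (chr3:19660569-19660589, minus, 170 nt) from 0.693 to 0.203, so both RPL24 paralogs are among them. The RPS24A site (chr3:1362224-1362244, plus, 169 nt) went from 0.817 to 0.344 and the RPL5B site (chr5:15905316-15905336, plus, 141 nt), whose motif is neither RAC nor GAT, from 0.579 to 0.11. The RPL10C site is the sole one of the 8 in a coding sequence (chr1:24839925-24839945, plus) and went from 0.779 to 0.109 at depths of 290 and 226, and its paralog RPL10A has the identical window. The RPL5A site (chr3:9269355-9269375, minus, 208 nt) went from 0.949 to 0.147 and the RPP0A site (chr2:16708521-16708541, minus, 47 nt) from 1 to 0.531, but at depths of only 26 and 33, and 22 and 38. For the RPP0B, RPL24A and RPP0A sites a like sequence with another base in place of the A was found in another gene, and its part in the value was not tested.

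All 18 sites with a fraction of 1 in every tissue were also tested in mta, and 12 of them were at 1 in both genotypes, among them 9 of the 10 AGACA sites, while the AGACA site of RPL9-AT1G33120 was at 0.992 in mta. The 5 others that were below 1 in mta had other motifs: RPL13B went from 0.827 to 0.437, RPSAA from 0.742 to 0.601, RPS18-AT1G22780 from 1 to 0.738, RPL4D from 1 to 0.775 and RPL11-AT5G45775 from 1 to 0.776. A fraction of 1 is the upper end of the calibrated scale, where small changes may not show. Among the AGACA sites in the 3′ UTR that were not chosen for a fraction of 1 in every tissue, the other site of RPL10C went from 0.820 to 0.378, that of RPSAA from 0.611 to 0.488 and that of RPS3A from 1 to 0.870, while that of RPP0C was at 1 in both genotypes at depths of 20 and 23. The site of RPL9D and the other site of RPL18B were not tested in mta. The GAT sites printed above were lower in mta, the RPL5A site at 0.659 in Col and 0.367 in mta and the RPL7AB site at 0.655 and 0.395. The largest rise was in the coding sequence of RPL7AB (motif TCATC), from 0.197 to 1, at depths of 670 and 579.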

How the data were processed

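The authors deposited raw counts per gene for the 36 tissue libraries, TPM values per gene for the 8 libraries of the mta experiment, and m6A fractions with read depths and a mark for called sites, pooled over replicates. Per the labels and the study's methods, polyA RNA was sequenced as 150 bp paired-end reads (Illumina), sites were called with the authors' m6A-SACseq pipeline on TAIR10, and fractions were calibrated on spike-in probes for each motif. Reads per gene came from a counter not given in the sources used here.

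The 18 input libraries of the tissues were tested with edgeR 4.0.16 (R 4.3.3; TMM, filterByExpr, quasi-likelihood F test). The design had planned edgeR for mta too, but as that table holds TPM, limma 3.58.1 was used on log2(TPM + 1), for genes averaging 1 TPM or more; 100% of the values under 50 reads came out as whole reads (within 0.05) when multiplied by gene length, and edgeR on these reads (6884597 to 10783646 per library) was an alternative. Other tools were DESeq2 1.42.0, Python 3.11.15, pandas 2.3.3 and matplotlib 3.10.9. The edgeR script was tested on simulated data. The p-values measure a spread between replicates that is pooled over the groups of each fit and moderated over genes, not that of the 2 replicates of 1 group. The methods call the replicates biological. Between the 2 input libraries of a tissue, chi-squared per degree of freedom was 1.09 in flowers and 1.64 in roots, the lowest and highest. Counting noise alone gives 1, so replicates differed little and small p-values reflect that. Replicate numbers did not pair samples.

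The members, gene lists and rules were chosen with earlier results of these data known. The genes named were, in each tissue, up to 3 called members with the largest log2 difference in each direction, the 6 families whose shares ranged most, the 8 members with the largest mean summed fraction, sites found in all 9 tissues, the sites with the largest range (7 tied), members called in mta and the 8 sites with the largest fall; other sites and genes were chosen after their values were seen. The paralogs of 1 protein entered all counts but are not reported here by name. Alternatives were other normalizations, no filter, DESeq2, the treated libraries, other pseudocounts, depths and site rules, and leaving out each library. Sequences were read from the reference genome, whose nuclear chromosomes equal TAIR10.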

Additional observations from a re-analysis of the deposited data

How the results depend on the processing

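With library size scaling only, which was chosen after seeing the data, the members higher were 16 in seedlings, 44 in shoots, 9 in rosette leaves and 1 in seeds, those lower 11 in seedlings, 0 in shoots and 19 in rosette leaves, and RPL9-AT1G33140 (0.0294) and RPL9-AT1G33120 (0.0655) in shoots and RPL11A (-0.16) and RPL11-AT3G58700 (-0.37) in seeds changed sign. DESeq2 size factors and DESeq2's Wald test gave 1 member lower in rosette leaves, and size factors and the treated libraries 1 lower in siliques; the treated libraries gave 0 members higher in mta. Leaving out 1 library at a time gave 1 to 4 members higher in seedlings, 11 to 17 in shoots and 4 to 7 in seeds, and 1 to 2 lower in rosette leaves, and a median of the members in seeds of -0.1171 to 0.0316 relative to all genes, above 0 only without seed replicate 1. The other tissue and mta counts stayed within 1.5 times their value under each left-out library. With a replicate block, 115 results were refitted and 0 changed their call (28 members were lower in seedlings without the block and 29 with it); same-numbered replicates did not deviate together (correlations of -0.03 to 0.06), so the numbers pair no samples. A site rule of the mark and a fraction of at least 0.2 left 368 distinct sites and 4.45 sites per member and tissue, a fraction above 0.05 without the mark gave 10.2, and an mta fraction of at most 1/2 of Col 59 MTA-dependent sites. The ranges of paralog shares were 20.5 (RPL10C), 21.2 (RPL24A), 12.3 (RPL4D) and 14.9 points (RPL11-AT5G45775) without the seed, and 23.4 (RPL4D) and 17 (RPS6A) in the treated libraries. The cause of these changes was not tested. Depth limits the sites of the rare paralogs, whose sites rarely reach 20 reads.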

Other observations

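Nuclear genes for chloroplast ribosomal proteins, whose ribosomes translate the plastid genome, followed another order of tissues than the cytosolic ones. Of 15 such genes, all were higher in rosette leaves, seedlings, shoots and flowers than in the mean of the other tissues, and all were lower in roots, while 14 were lower in seeds (edgeR's quasi-likelihood test, adjusted over all genes). Of all genes tested, 30.0%, 37.2%, 36.7% and 41.5% were higher in the first 4 tissues, and 28.2% and 41.6% lower in roots and seeds. The median log2 difference of the 15 genes was 1.94 in rosette leaves, -3.07 in roots and -1.82 in seeds. Their summed RPKM was 5043 and 4881 in rosette leaves, 3163 and 3156 in seedlings, 603 and 570.2 in seeds and 239 and 227 in roots. In the Col and mta seedlings their summed level was 8499 and 8556 TPM in Col and 8981 and 8929 in mta.

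RPS6A gave 36.6% and 38.2% of the RPS6 transcripts in the seedlings of the tissue series, and 54.9% in each Col library of the mta experiment, whose table was made separately. RPL10C gave 29.2% and 30.2% in the former and 18.4% and 19.0% in the latter. The cause of these gaps was not tested. The coding sequences of RPL11-AT4G18730 and RPL11-AT5G45775 share a site window, at which the fraction went from 1 in Col to 0.887 in mta in the former and from 0.656 to 0.791 in the latter.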
